A study of Mus musculus with 8 samples.

Results

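Potassium channel genes other than the Kv1 and Kv3 families were measured in sorted cells of the embryonic mouse cochlear nucleus with and without conditional targeting of Hoxa2 and Hoxb2. The members were all genes of the count table whose symbol begins with Kcn, leaving out symbols that begin with Kcna or Kcnc and the non-coding Kcnq1ot1. This gave 82 of the 39017 genes in the table, namely 79 protein-coding genes and 3 antisense genes, Kcnd3os, Kcnmb4os1 and Kcnmb4os2. Potassium channels are membrane pores that let potassium leave the cell, and they set the resting potential, repolarise the action potential and limit repetitive firing. The families differ in what opens them: voltage for Kv2, Kv4, Eag, Erg, Elk and Kcnq channels, internal calcium or sodium for Kcnn, Kcnma1 and Kcnt channels, and neither for the leak channels of the Kcnk family or the inward rectifiers of the Kcnj family. In mature cochlear nucleus neurons such channels shape firing patterns in response to sound.

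The mutant embryos carried Math1::Cre, Rosa tdTomato, Hoxa2+/fl and Hoxb2fl/fl according to the sample titles, whereas the design text gives the Hoxa2 allele as fl/fl too. The wild type embryos carried Math1::Cre and Rosa tdTomato, so that the driver and the reporter were common to both groups, as was the C57BL/6 strain. Cre under Math1 (Atoh1) control acts in the rhombic lip lineage, and the tdTomato reporter marks cells with a history of Cre activity. There were 4 mutant and 4 wild type libraries at stage E18.5, each from 30000 sorted cells of 3 pooled littermates, with a separate mother for every sample. Column headings number the libraries across both groups, as mutant 1 to 4 and wild type 5 to 8.

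Total counts were between 26299105 and 51118195 in mutant and between 24789043 and 40050010 in wild type libraries, and the members took 0.123% to 0.153% of the counts in mutant and 0.117% to 0.153% in wild type libraries. Of the targeted genes, Hoxb2 was at 6.80, 3.82, 3.76 and 5.66 CPM in mutant 1 to 4, against 37.4, 46.6, 37.5 and 38.9 CPM in wild type 5 to 8, and passed as lower (edgeR adjusted p = 3.76e-05). Hoxa2 was at 19.9, 47.9, 11.1 and 27.8 CPM in mutant 1 to 4, against 30.8, 55.1, 49.1 and 37.7 CPM in wild type 5 to 8, with overlapping groups, and did not pass (edgeR adjusted p = 0.506). CPM are counts scaled to a common library total after TMM normalisation. Markers of the excitatory Math1 lineage were all measured, and their summed level was 5548 to 7240 CPM in mutant and 5413 to 6354 CPM in wild type libraries. The sum was carried mostly by Zic1, at 2582 to 4217 CPM in mutant and 2179 to 3197 CPM in wild type libraries. Of the 13 markers 4 had a positive log2 fold change, and the median was -0.21, against -0.01 over all tested genes. Nhlh1 alone passed, as lower, at 46.2 ± 6.85 CPM in mutant and 89.1 ± 5.61 CPM in wild type libraries (SD, n = 4 each, edgeR adjusted p = 0.00603). Oligodendrocyte lineage markers summed to 76.5 to 86.2 CPM in mutant and 73.1 to 105 CPM in wild type libraries, and endothelial markers to 6.23 to 14.8 CPM in mutant and 7.28 to 22.2 CPM in wild type libraries. The erythroid markers Hba-a1 and Hba-a2 were at 0 in all libraries. The first principal component of all tested genes held 34.4% of the variance. Mutant 2, 3 and 4 lay at -34.9, -49.9 and -33.1 on it, and wild type 7 and 8 at 3.61 and -3.07. Mutant 1 (22.0), wild type 5 (43.5) and wild type 6 (51.9) lay highest, so that mutant 1 was among the wild type values. These 3 highest libraries also had the 3 lowest shares of counts in the members.

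Across the members, 70 of 82 had enough counts to be tested between the groups, and 1 passed at an edgeR adjusted p below 0.05: Kcnn1, which fell in mutants. Of all 19494 genes tested, 0.359% passed in either direction and 0.215% passed as lower. The share of tested members called was 1.43%, a share that rests on this single gene. A positive log2 difference between the groups (the log2 fold change, mutant minus wild type) was found for 39 of the 70 tested members, or 55.7%, against 48.4% of all tested genes, and the median was 0.10 over the tested members and -0.01 over all tested genes. This median turned to -0.02 without mutant 4, where 34 of 71 tested members were positive, and to -0.0011 without wild type 8, where 35 of 71 were. Groups did not overlap in 5 tested members (7.14%), 2 higher and 3 lower in mutants, against 6.17% of all tested genes in either direction, 3.23% higher and 2.94% lower. The 3 lower ones include Kcnmb4 and its antisense gene Kcnmb4os2, which share exons and are not separate observations. Of the 2 higher ones, Kcnf1 was barely apart, at 1.187 CPM in mutant 4 and 1.181 CPM in wild type 5. An unadjusted p below 0.05 was reached by 13 tested members, or 18.6%, against 12.5% of all tested genes. Of these, 9 were higher, among them Kcnd1, Kcnd2, Kcnf1, Kcnh8, Kcnip4, Kcnma1, Kcnt1 and Kcnu1, and the 4 lower ones were Kcnn1, Kcnmb4, Kcnk9 and Kcne1l. Among all tested genes 7.22% were higher and 5.29% lower at that p. With DESeq2, Kcnd2, Kcnma1 and Kcnt1 also passed, all as higher. Of all 19494 genes, 311 passed as higher with DESeq2, and 2.55% passed in either direction. The 95% interval of the log2 fold change lay between -1 and 1 for 36 of the 70, so that for the others a difference of that size in at least 1 direction was within the interval.

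**Figure D1:**
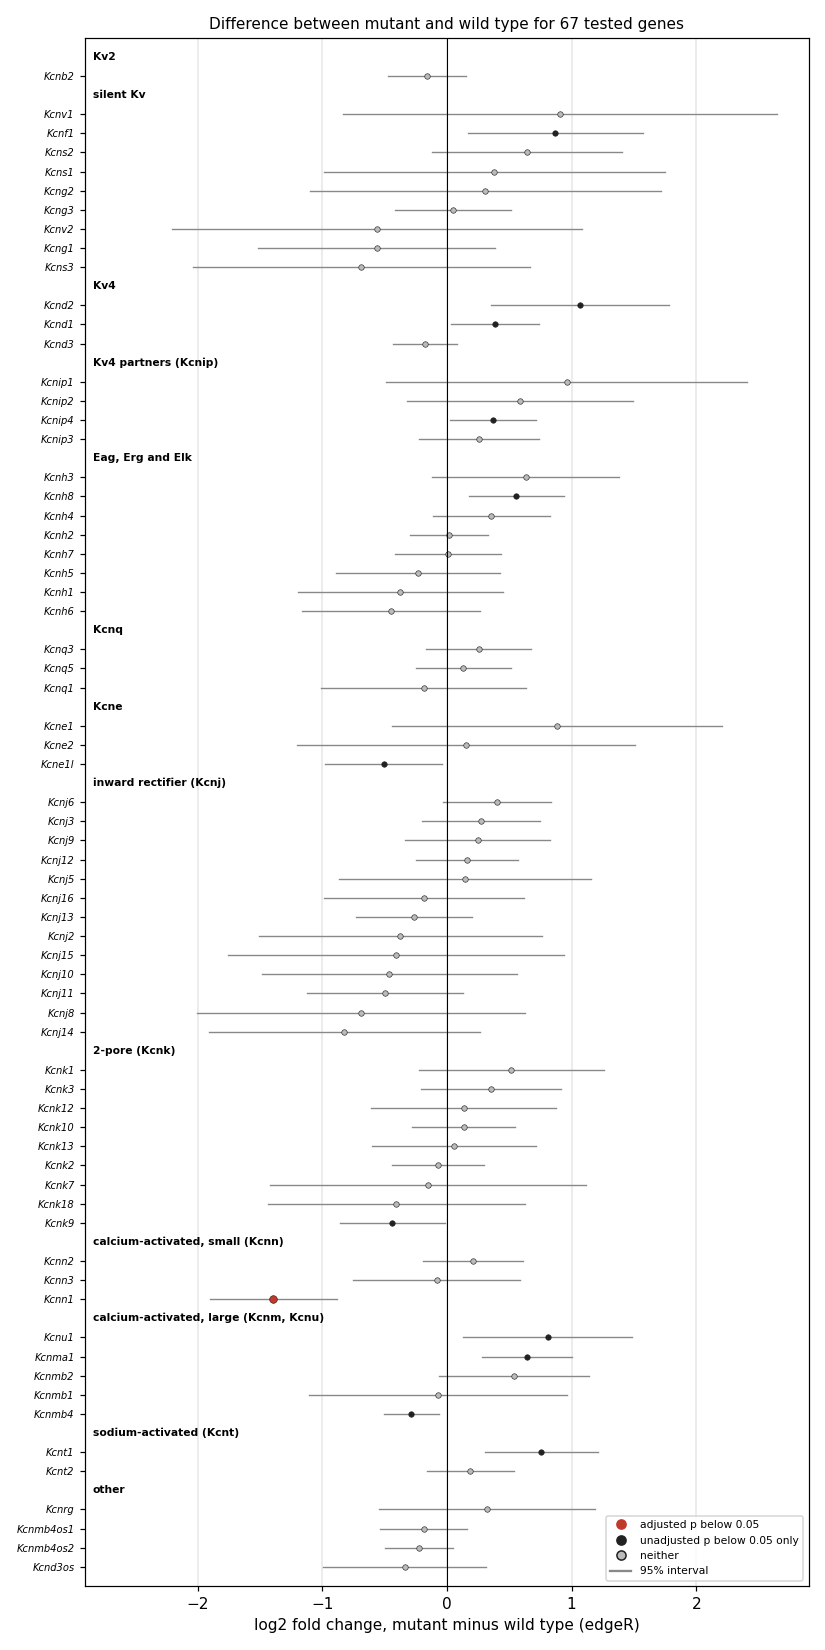
Log2 fold change (mutant minus wild type) with its 95% interval from edgeR for 67 of the 70 tested members, grouped by family. Kcnn1 in the small conductance calcium-activated family, at -1.39, is the only gene past the adjusted threshold, and 11 others shown have an unadjusted p below 0.05 alone.

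Small conductance calcium-activated channels (SK channels, Kcnn1 to Kcnn3) are opened by calcium through bound calmodulin and carry the afterhyperpolarisation that follows a spike. Kcnn1 (ENSMUSG00000002908, mm10 chromosome 8, 70842049 to 70863258, minus strand), which encodes the SK channel of that name, held 5.36, 6.37, 3.76 and 5.69 CPM in mutant 1 to 4, against 16.3, 8.56, 16.9 and 13.6 CPM in wild type 5 to 8. Every mutant library lay below every wild type library, and the nearest were mutant 2 and wild type 6. The raw counts were 164, 162, 194 and 211 in mutant 1 to 4 and 636, 220, 592 and 539 in wild type 5 to 8. Kcnn1 fell by 1.39 on the log2 scale (95% interval -1.90 to -0.88, SE 0.234, edgeR adjusted p = 0.0278), with means of 5.30 ± 1.11 CPM in mutant and 13.9 ± 3.81 CPM in wild type libraries (SD, n = 4 each). In these bulk samples, fewer cells that express a gene and less RNA per cell cannot be told apart. The sign was negative in all 18 alternatives, while the call ended at an edgeR adjusted p of 0.0623, 0.0964 or 0.0977 on leaving out mutant 2, 3 or 4, and of 0.105, 0.0639 or 0.0845 on leaving out wild type 5, 7 or 8.

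The bases upstream of Kcnn1 are shown because it is the member that passed. The sequence is from RefSeq (GRCm38.p6) and covers the 250 bases before the most distal RefSeq start site, at chr8:70863259-70863508 on the minus strand, read 5′ to 3′ towards the gene, with capitals marking CAGCTG, an E-box of the kind bound by helix-loop-helix proteins.
Kcnn1: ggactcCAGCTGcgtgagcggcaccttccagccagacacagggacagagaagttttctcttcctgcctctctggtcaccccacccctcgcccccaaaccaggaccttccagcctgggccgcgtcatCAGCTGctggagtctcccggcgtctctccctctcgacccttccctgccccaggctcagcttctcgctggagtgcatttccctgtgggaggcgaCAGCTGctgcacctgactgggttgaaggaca
The window holds CAGCTG at 3 places, while the 250 bases before the other RefSeq start site of Kcnn1 (chr8:70857009-70857258) hold it at 1 place. This motif reads the same on both strands. It occurred in 13.0% of all 32851 promoter windows of the same length and in 22.1% of the 77 windows of the 59 members that the RefSeq table held. The windows of Kcnn1 are among these 77. The letters TGATNNAT, a composite site of Pbx and Hox proteins, were in 7.68% of all windows and in 3.90% of the members' windows on either strand. TGACAG, a Meis site, was in 15.9% of all windows and in 14.3% of the members' windows. Neither was in the Kcnn1 window printed here. A match of letters is a description and does not show binding.

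The other SK genes gave no call. Kcnn2 held 13.5, 19.7, 11.7 and 15.8 CPM in mutant 1 to 4, against 11.5, 12.3, 16.7 and 12.01 CPM in wild type 5 to 8, and the groups overlapped. Its log2 difference was 0.21 (95% interval -0.19 to 0.61, SE 0.185, edgeR adjusted p = 0.654). Kcnn3 had a log2 difference of -0.08 (SE 0.308), with mutant 1 highest at 8.14 CPM and mutant 3 lowest at 2.72 CPM. Kcnn4, the intermediate conductance channel of blood and epithelial cells, had 0 to 3 counts in mutant and 0 to 7 counts in wild type libraries and was not tested. Per length, Kcnn1 was below Kcnn2 in mutants, at 1.31 ± 0.273 and 2.08 ± 0.474 RPKM, and above it in wild type libraries, at 3.42 ± 0.940 and 1.79 ± 0.328 RPKM (SD, n = 4 each; RPKM divides CPM by the gene length in kilobases). The ratio of Kcnn1 to Kcnn2 within a library, which does not depend on library scaling, was 0.717, 0.583, 0.580 and 0.650 in mutant 1 to 4, against 2.56, 1.26, 1.83 and 2.05 in wild type 5 to 8. The pair was chosen after its values were seen and the ratio was not tested. An opposite-strand gene, A230052G05Rik, shares 132 exon bases (2.88%) with Kcnn1 and stood at 0.896 CPM in mutant and 2.01 CPM in wild type libraries. The counting is not stated to use strand, so reads of the shared part cannot be assigned to either.

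Large conductance calcium-activated channels (BK channels) are formed by the pore subunit Kcnma1, opened by voltage and calcium together, with accessory beta subunits Kcnmb1 to Kcnmb4. Kcnma1 held 34.7, 44.5, 30.3 and 40.3 CPM in mutant 1 to 4, against 21.5, 19.5, 30.8 and 24.1 CPM in wild type 5 to 8. Only mutant 3 and wild type 7 overlapped. The log2 difference was 0.64 (95% interval 0.28 to 1.00, SE 0.165, edgeR adjusted p = 0.145) and did not pass. With DESeq2 its adjusted p was 0.0227, with limma-voom and quality weights 0.0467, and with no low-count filter 0.0398 by edgeR, while over all alternatives it ran from 0.0227 to 0.436. Among all genes 0.616% passed with no filter and 1.2% with quality weights. Kcnmb4, the beta subunit of neurons, which slows BK gating, held 44.2, 50.3, 53.1 and 48.4 CPM in mutant 1 to 4, against 63.4, 54.9, 59.6 and 61.1 CPM in wild type 5 to 8. The groups did not overlap, but the log2 difference of -0.29 (edgeR adjusted p = 0.292, SE 0.101) did not pass. Per length, Kcnmb4 was above its pore partner in both groups, at 14.7 ± 1.12 RPKM for Kcnmb4 and 7.43 ± 1.24 RPKM for Kcnma1 in mutants and at 17.97 ± 1.08 and 4.76 ± 0.979 RPKM in wild type libraries. The ratio of Kcnma1 to Kcnmb4 per length was 0.376 to 0.584 in mutants, against 0.224 to 0.341 in wild type libraries, again for a pair chosen after its values were seen and with no test.

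The antisense genes Kcnmb4os1 and Kcnmb4os2 overlap Kcnmb4, sharing 355 and 693 exon bases with it, or 10.7% and 20.8% of the Kcnmb4 exons. These bases are 43.1% of the Kcnmb4os1 exons and 34.2% of the Kcnmb4os2 exons. Kcnmb4os2 held 10.4, 11.5, 11.7 and 12.5 CPM in mutant 1 to 4, against 13.2, 13.5, 13.5 and 13.7 CPM in wild type 5 to 8, with no overlap, a log2 difference of -0.22 (SE 0.124) and an edgeR adjusted p of 0.484. Kcnmb4os1 had a log2 difference of -0.19 (SE 0.160). Since reads of the shared exons cannot be assigned without strand, these 3 genes are not separate observations. Of the remaining genes of this family, Kcnmb2, a beta subunit that inactivates the channel, had a log2 difference of 0.54 (SE 0.277) and Kcnu1, whose product is known from sperm, one of 0.81 (edgeR adjusted p = 0.318, SE 0.311) at 2.72 ± 0.945 CPM in mutant and 1.55 ± 0.344 CPM in wild type libraries. Kcnmb1 was at or below 0.472 CPM in every library, and Kcnmb3, with 21 counts in all, was not tested.

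Kv4 channels (Kcnd1 to Kcnd3) carry the A-type current, a transient potassium current of dendrites and cell bodies that delays firing. They took 26.4% of the members' summed wild type CPM, more than any other family. Kcnd3 was the most abundant member per length in wild type libraries, at 27.6 ± 1.797 RPKM in mutant and 31.2 ± 4.38 RPKM in wild type libraries (SD, n = 4 each). It held 242, 262, 275 and 281 CPM in mutant 1 to 4, against 298, 239.9, 332 and 326 CPM in wild type 5 to 8, a log2 difference of -0.18 (95% interval -0.43 to 0.08, SE 0.119, edgeR adjusted p = 0.557). Kcnd2 had the largest positive fold change of all tested members in the comparison of all 8 libraries. It held 37.9, 100.2, 88.9 and 110.5 CPM in mutant 1 to 4, against 28.3, 33.8, 49.8 and 49.0 CPM in wild type 5 to 8. Mutant 2, 3 and 4 exceeded every wild type library, and mutant 1 was between wild type 6 and 8.

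The log2 difference of Kcnd2 was 1.07 (95% interval 0.35 to 1.78, SE 0.317, edgeR adjusted p = 0.236) and did not pass with all 8 libraries. Without mutant 1 it was 1.31 (edgeR adjusted p = 0.00637, SE 0.188). With the 3 libraries highest on the first principal component left out, it was 1.02 (edgeR adjusted p = 0.00912, SE 0.141). That setting was added once the data had been seen. DESeq2 on all 8 libraries gave an adjusted p of 0.0143, and over all alternatives the adjusted p ran from 0.00637 to 0.594. Without mutant 1, 2.7% of 20124 genes passed, and with those 3 left out 0.849% of 20153 did. The Kcnd2 to Kcnd3 ratio per length was 0.291, 0.713, 0.602 and 0.731 in mutant 1 to 4, against 0.177, 0.262, 0.279 and 0.280 in wild type 5 to 8. This ratio did not overlap between the groups, though mutant 1 lay next to the wild type libraries. It was chosen after its values were seen and was not tested. Kcnd1, the least abundant of the family, held 6.05, 5.90, 5.39 and 6.58 CPM in mutant 1 to 4, against 4.36, 4.43, 4.77 and 4.75 CPM in wild type 5 to 8. The groups did not overlap, with a log2 difference of 0.38 (edgeR adjusted p = 0.361, SE 0.161) that did not pass. The antisense gene Kcnd3os, which shares 165 exon bases with Kcnd3, was at 1.11 CPM in mutant and 1.41 CPM in wild type libraries.

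The Kcnip genes encode the calcium-binding proteins that bind Kv4 channels and bring them to the surface. All 4 had a positive log2 fold change and none passed. Kcnip4, the most abundant per length, held 68.8, 81.5, 103 and 68.4 CPM in mutant 1 to 4, against 53.9, 55.8, 77.8 and 61.5 CPM in wild type 5 to 8, a log2 difference of 0.37 (edgeR adjusted p = 0.366, SE 0.158) with overlapping groups. It was 0.23 without mutant 3 (edgeR adjusted p = 0.631). Kcnip3, also known as a transcriptional repressor, had one of 0.26 (SE 0.221). Kcnip2 had one of 0.59 (SE 0.415). Kcnip1 differed widely between libraries, with 1.31, 13.6, 3.24 and 5.58 CPM in mutant 1 to 4, against 1.51, 2.37, 4.74 and 3.44 CPM in wild type 5 to 8, and a log2 difference of 0.96 (edgeR adjusted p = 0.560, SE 0.640). Its mutant value was high in mutant 2 and low in mutant 1. Of the membrane partners of Kv4, Dpp10 held 2.39, 11.5, 5.98 and 7.63 CPM in mutant 1 to 4, against 1.44, 1.59, 3.06 and 2.40 CPM in wild type 5 to 8, a log2 difference of 1.69 (edgeR adjusted p = 0.146, SE 0.424), and Dpp6 had one of -0.63 (edgeR adjusted p = 0.301, SE 0.223).

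Markers of inhibitory neurons, a cell type outside the excitatory Math1 lineage, were measured beside Kcnd2, Kcnip1 and Dpp10. Of 8 listed markers 7 were tested, 6 had a positive fold change, Lhx1 had a negative one of -1.12 and none passed by edgeR, and the summed level was 77.7 to 116 CPM in mutant and 65.9 to 92.7 CPM in wild type libraries. Gad1, which makes the inhibitory transmitter GABA, held 9.16, 37.9, 19.9 and 33.0 CPM in mutant 1 to 4, against 5.60, 8.98, 11.6 and 19.0 CPM in wild type 5 to 8, and its log2 difference was 1.14 (edgeR adjusted p = 0.385). Mutant 1 was the lowest mutant library for Gad1, as for Kcnd2, Kcnip1 and Dpp10. Among mutant libraries, Gad2, Slc32a1, Slc6a5, Pax2 and Lhx5 were also lowest in mutant 1. Lhx1 was highest in mutant 1, at 36.0 CPM, and Ptf1a was lowest in mutant 2. The summed level of the 8 markers was 80.8, 116, 77.7 and 110 CPM in mutant 1 to 4, and thus lowest in mutant 3. No listed marker was at 0 in all libraries, and Ptf1a, a determinant of inhibitory neurons, was at most 0.175 CPM in mutant and 0.657 CPM in wild type libraries. The part of these cells in the Kcnd2, Kcnip1 and Dpp10 values was not tested.

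**Figure D2:**
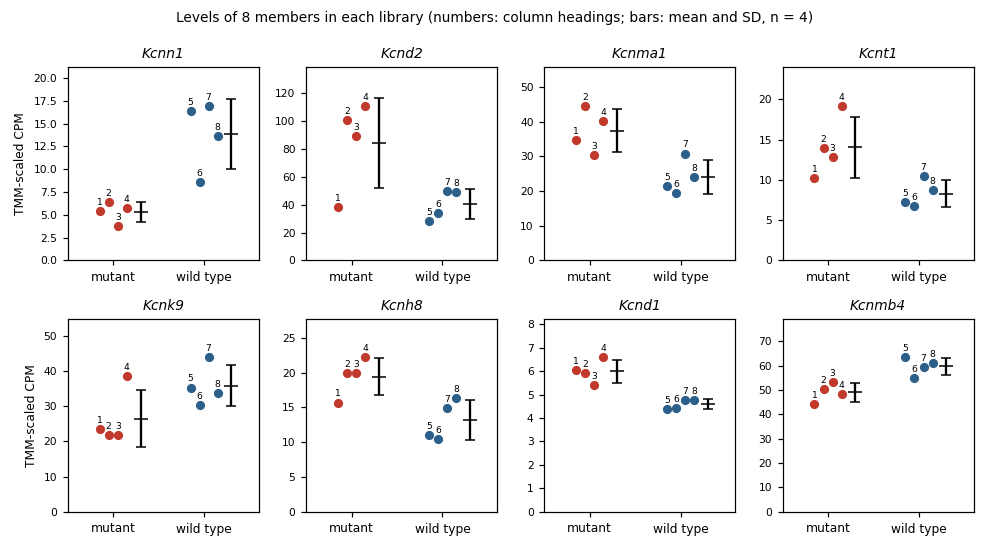
TMM-scaled CPM of 8 members in each library, mutant left and wild type right, with column-heading numbers beside the points and the mean and SD of 4 libraries as bars. Kcnn1 lies at 3.76 to 6.37 CPM in mutants and 8.56 to 16.9 CPM in wild type libraries, and for Kcnd2 mutant 1, at 37.9 CPM, stands with the wild type libraries. The 8 were chosen after their values were seen.

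Sodium-activated channels (Kcnt1 and Kcnt2, also called Slack and Slick) open as sodium accumulates during firing and are prominent in auditory brainstem neurons. Kcnt1 held 10.2, 14.0, 12.8 and 19.2 CPM in mutant 1 to 4, against 7.21, 6.81, 10.5 and 8.70 CPM in wild type 5 to 8. Mutant 1 was below wild type 7, and the other mutant libraries were above all of wild type. The log2 difference was 0.76 (95% interval 0.30 to 1.21, SE 0.209, edgeR adjusted p = 0.176). It passed without mutant 1, at 0.88 (edgeR adjusted p = 0.0397, SE 0.199), and with DESeq2, at an adjusted p of 0.0280. Across the alternatives its adjusted p ran from 0.0280 to 0.508. Kcnt2 was higher per length, at 3.23 ± 0.477 RPKM in mutant and 2.83 ± 0.509 RPKM in wild type libraries, and had a log2 difference of 0.19 (SE 0.159, 95% interval -0.16 to 0.53).

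Kcnq channels carry the M-current, a slow potassium current that stays active near threshold and is closed by muscarinic receptors. None of 5 passed by edgeR. Kcnq5 was at 7.83 ± 2.02 RPKM in mutant and 7.15 ± 0.724 RPKM in wild type libraries, and Kcnq3 at 3.27 ± 0.841 RPKM in mutant and 2.75 ± 0.491 RPKM in wild type libraries (SD, n = 4 each). Kcnq3 held 56.97, 53.7, 29.997 and 46.5 CPM in mutant 1 to 4, against 33.1, 48.7, 40.4 and 34.8 CPM in wild type 5 to 8, and mutant 3 was below all other libraries while mutant 1 was above them. Its log2 difference was 0.25 (95% interval -0.17 to 0.67, SE 0.193, edgeR adjusted p = 0.605). Kcnq5 had one of 0.13 (95% interval -0.25 to 0.51, SE 0.173). Kcnq1, the channel of heart and inner ear, was at most 0.886 CPM in any library.

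The Kcne genes encode single-span subunits that join Kcnq and other Kv channels. Of 5, Kcne3 and Kcne4 were not tested. Kcne1l (also called Kcne5) was the most abundant per length and held 6.97, 6.22, 5.20 and 4.18 CPM in mutant 1 to 4, against 10.6, 7.51, 6.28 and 7.58 CPM in wild type 5 to 8, a log2 difference of -0.51 (edgeR adjusted p = 0.364, SE 0.215) with overlapping groups. Kcne2, a channel subunit of choroid plexus and stomach, ran from 0.0393 to 0.970 CPM in mutant and from 0.379 to 0.486 CPM in wild type libraries, and the sign of its log2 difference of 0.15 turned without mutant 3 (-0.60) and with limma-voom (-0.35, and -1.05 with quality weights). Kcne1, the partner of Kcnq1, had 59 counts in all and a log2 difference of 0.89 (SE 0.608). The summed level of 8 choroid plexus markers was 499 to 671 CPM in mutant and 531 to 843 CPM in wild type libraries, most of it Otx2. Of 7 tested, 4 had a positive log2 fold change and none passed by edgeR, with 0.83 for Ttr (SE 0.739), -1.19 for Clic6 (SE 0.454) and -0.32 for Otx2 (SE 0.159). Ttr itself was at 1.38 to 4.77 CPM in mutant and 0.371 to 3.70 CPM in wild type libraries. The part of these markers in the Kcne2 values was not tested.

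The Kcnh family comprises the Eag, Erg and Elk channels, slowly gating Kv channels that control excitability near threshold. All 8 were tested and none passed, with 5 positive fold changes. Kcnh8, an Elk channel, held 15.7, 19.9, 19.9 and 22.2 CPM in mutant 1 to 4, against 11.0, 10.4, 14.9 and 16.4 CPM in wild type 5 to 8. Mutant 1 alone was below the highest wild type library. The log2 difference was 0.56 (95% interval 0.18 to 0.94, SE 0.173, edgeR adjusted p = 0.235). Kcnh7, an Erg channel, had the most counts of the family, with 49.3, 71.6, 46.3 and 63.6 CPM in mutant 1 to 4, against 43.7, 50.7, 79.3 and 55.5 CPM in wild type 5 to 8, and a log2 difference of 0.01 (SE 0.193, 95% interval -0.41 to 0.43) whose sign turned in 9 alternatives. Kcnh2, the Erg channel of the heart, stood at 11.0 ± 1.20 CPM in mutant and 10.8 ± 1.10 CPM in wild type libraries, with a log2 difference of 0.02 (SE 0.144, 95% interval -0.30 to 0.33). The other 5 lay between -0.45 for Kcnh6 and 0.63 for Kcnh3 on the log2 scale.

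Kv2 channels are the main delayed rectifiers of neuronal cell bodies. Kcnb2 was at 10.4 ± 1.88 RPKM in mutant and 11.6 ± 1.27 RPKM in wild type libraries (SD, n = 4 each). It held 67.7, 62.4, 43.5 and 63.6 CPM in mutant 1 to 4, against 73.2, 56.0, 67.9 and 67.2 CPM in wild type 5 to 8, and its log2 difference was -0.16 (95% interval -0.47 to 0.16, SE 0.144, edgeR adjusted p = 0.669). The silent subunits Kcnf1, Kcng1 to Kcng4, Kcns1 to Kcns3, Kcnv1 and Kcnv2 form no channel alone and modify Kv2 channels. Of these 10, 9 were tested and none passed. Their summed level was 8.05 to 11.8 CPM in mutant and 5.92 to 9.49 CPM in wild type libraries. Kcnf1 held 1.83, 1.69, 1.77 and 1.19 CPM in mutant 1 to 4, against 1.18, 1.17, 0.657 and 0.556 CPM in wild type 5 to 8, with no overlap, a log2 difference of 0.87 (SE 0.322) and an edgeR adjusted p of 0.304. Kcng3 was the most abundant silent subunit per length, with a log2 difference of 0.05 (SE 0.213), and Kcns2 had one of 0.64 (SE 0.350). The other 6 tested silent subunits lay between -0.69 for Kcns3 and 0.91 for Kcnv1 on the log2 scale. Kcnrg encodes a soluble protein that interferes with the assembly of Kv channels, and it had a log2 difference of 0.32 (SE 0.397).

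**Figure D3:**
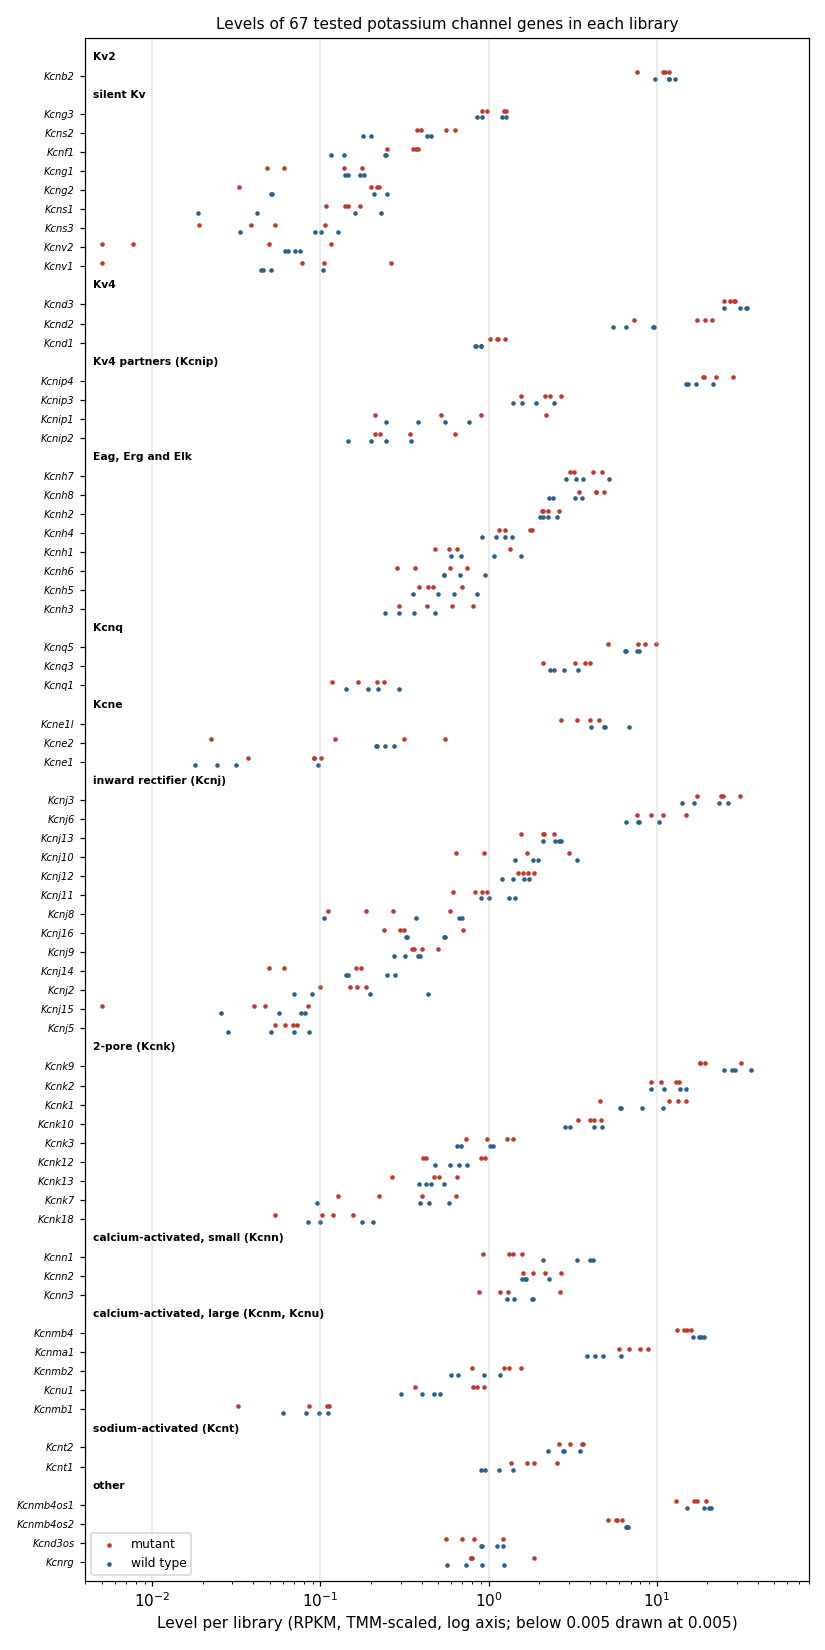
TMM-scaled RPKM of 67 of the 70 tested members in each library on a log axis, by family, with mutant points above wild type points. Most families have 1 or 2 members well above the rest, such as Kcnd3 in the Kv4 family and Kcnj3 and Kcnj6 among the inward rectifiers.

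Inward rectifiers pass potassium best near rest. Kcnj3 and Kcnj6 encode GIRK subunits, which G protein coupled receptors open through G protein beta and gamma subunits. None of 13 tested inward rectifiers passed, with 5 positive fold changes. Kcnj3 held 91.0, 127, 130.04 and 162 CPM in mutant 1 to 4, against 86.8, 74.1, 139 and 122 CPM in wild type 5 to 8, a log2 difference of 0.27 (edgeR adjusted p = 0.622, SE 0.216). Kcnj6 held 53.9, 63.6, 44.6 and 86.2 CPM in mutant 1 to 4, against 37.9, 44.8, 59.7 and 45.9 CPM in wild type 5 to 8, one of 0.40 (edgeR adjusted p = 0.439, SE 0.198) that was 0.20 without mutant 4 (edgeR adjusted p = 0.717). Both overlapped between the groups. An opposite-strand gene, Gm26794, shares 31.1% of the Kcnj3 exon bases and stood at 15.5 CPM in mutant and 13.3 CPM in wild type libraries. The remaining GIRK genes were lower, with Kcnj9 at 0.404 ± 0.0699 RPKM in mutant and 0.341 ± 0.0555 RPKM in wild type libraries and Kcnj5 at 0.0643 ± 0.00835 and 0.0584 ± 0.0247 RPKM. Kcnj2, Kcnj12, Kcnj14, Kcnj15 and Kcnj16 lay between -0.82 for Kcnj14 and 0.16 for Kcnj12 on the log2 scale.

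Some inward rectifiers are known from cells other than neurons. Kcnj10, the potassium buffering channel of astrocytes, held 16.2, 9.17, 3.47 and 5.07 CPM in mutant 1 to 4, against 9.93, 18.2, 10.7 and 7.79 CPM in wild type 5 to 8, a log2 difference of -0.46 (edgeR adjusted p = 0.695, SE 0.456) that was -0.99 without mutant 1 (edgeR adjusted p = 0.170, SE 0.359). The summed level of 9 astrocyte and radial glia markers was 873, 645, 411 and 452 CPM in mutant 1 to 4, against 654, 923, 682 and 690 CPM in wild type 5 to 8. Mutant 3 and 4 were lowest on both measures, and mutant 1 and wild type 6 were highest on both. Of these 9 markers 8 were tested, 1 had a positive fold change, none passed and none was at 0 in all libraries. Their part in the Kcnj10 values was not tested. Kcnj8, the pericyte subunit of ATP-sensitive channels, was at 0.243 to 1.30 CPM in mutant and 0.231 to 1.52 CPM in wild type libraries, and 8 pericyte and smooth muscle markers summed to 9.23 to 19.7 CPM in mutant and 11.3 to 28.3 CPM in wild type libraries. Kcnj13, an epithelial channel, shares 49.1% of its exon bases with the opposite-strand Gigyf2, at 85.8 CPM in mutant and 80.3 CPM in wild type libraries, so its 2.62 CPM in mutant and 3.14 CPM in wild type libraries are uncertain. Of the ATP-sensitive channel of neurons, the pore gene Kcnj11 had a log2 difference of -0.50 (edgeR adjusted p = 0.495, SE 0.287) and its partner Abcc8 one of -0.65 (edgeR adjusted p = 0.0982, SE 0.145), with 13.3, 12.5, 11.8 and 10.5 CPM for Abcc8 in mutant 1 to 4, against 23.1, 18.2, 17.7 and 16.3 CPM in wild type 5 to 8. The groups of Abcc8 did not overlap.

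Channels with a pair of pore loops per subunit (Kcnk) carry the background leak. Of 14, 9 were tested and none passed, with 5 positive fold changes. Kcnk9, an acid-sensitive leak channel of cerebellar granule cells, was the most abundant per length and the second most abundant member in wild type libraries, at 21.9 ± 6.75 RPKM in mutant and 29.6 ± 4.78 RPKM in wild type libraries. It held 23.5, 21.8, 21.9 and 38.6 CPM in mutant 1 to 4, against 35.3, 30.3, 43.9 and 33.8 CPM in wild type 5 to 8, a log2 difference of -0.44 (95% interval -0.86 to -0.02, SE 0.193, edgeR adjusted p = 0.383). Mutant 4 was among the wild type values, and the other 3 mutant libraries were below all of them. Without mutant 4 the log2 difference of Kcnk9 was -0.67 (edgeR adjusted p = 0.167, SE 0.149). Kcnk2, a leak channel sensitive to stretch and lipids, had 45.2 ± 8.02 CPM in mutant and 47.5 ± 9.95 CPM in wild type libraries and a log2 difference of -0.07 (SE 0.169), which turned positive without mutant 1 or wild type 7. Kcnk1 was lowest in mutant 1, at 10.7 CPM, against 27.4, 34.3 and 30.7 CPM in mutant 2 to 4 and 14.2, 14.0, 25.2 and 18.9 CPM in wild type 5 to 8, with a log2 difference of 0.52 (edgeR adjusted p = 0.543, SE 0.332) that was 0.77 without mutant 1 (edgeR adjusted p = 0.0611, SE 0.199). The other 6 tested Kcnk genes lay between -0.41 for Kcnk18 and 0.36 for Kcnk3 on the log2 scale.

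The levels per length spanned a wide range. In wild type libraries 8 members had a mean of at least 10 RPKM, 27 of at least 1 and below 10, 30 of at least 0.1 and below 1, and 17 below 0.1. In raw counts over all 8 libraries Kcnd3 alone held 20.8% of the members' reads, the 5 most counted members held 50.3% and the 10 most counted held 71.1%. The 12 members that were not tested had 10 to 87 counts in all, and were Kcng4, Kcne3, Kcne4, Kcnj1, Kcnj4, Kcnk4, Kcnk5, Kcnk6, Kcnk15, Kcnk16, Kcnmb3 and Kcnn4. At least 1 library had no count for 8 members, and a count of 0 allows a level of up to 0.0582 to 0.118 CPM in mutant and 0.0758 to 0.117 CPM in wild type libraries, covering counting error only. The coefficient of variation had a median over tested members of 26.4% among mutant and 22.6% among wild type libraries, and was larger among mutants for 44 of the 70. It exceeded 50% in 17 tested members among mutant and in 6 among wild type libraries.

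Mutant 1 was the lowest mutant library for 28 of the 70 tested members (40.0%), against 30.9% of all tested genes, and mutant 3 for 25 (35.7%), against 29.1%. Among wild type libraries wild type 8 was lowest for 23 (32.9%), against 23.0% of all tested genes, and wild type 7 for 8 (11.4%), against 25.6%. The summed level of all members was 1224 to 1627 CPM in mutant and 1128 to 1522 CPM in wild type libraries, and the groups overlapped. Without mutant 1, 3 of 71 tested members passed, with Kcnd2 and Kcnt1 higher and Kcnn1 lower, against 2.7% of all genes.

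**Figure D4:**
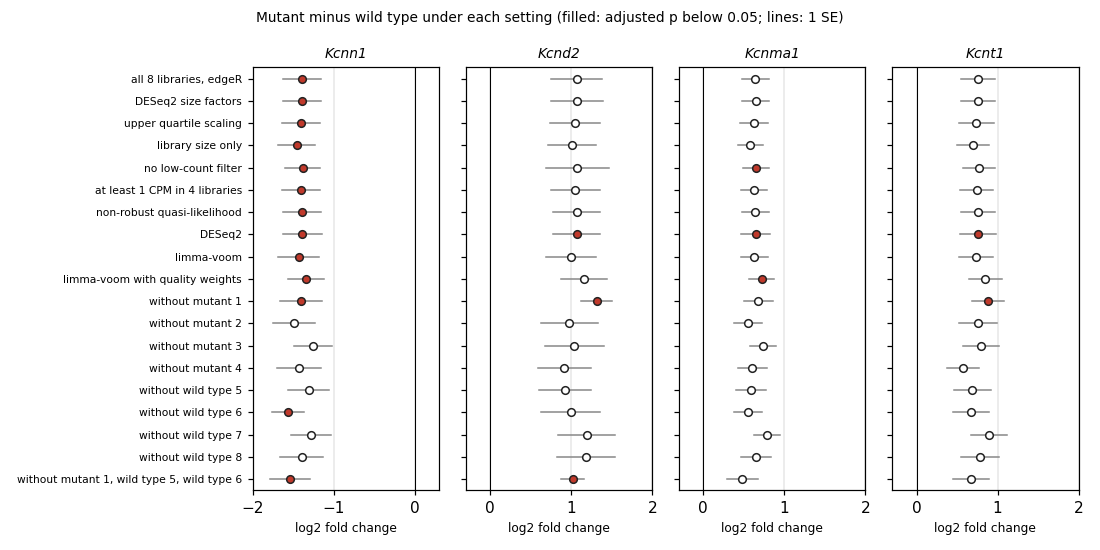
Log2 fold change (mutant minus wild type) with 1 SE of Kcnn1, Kcnd2, Kcnma1 and Kcnt1 under the comparison of all 8 libraries and 18 alternatives, filled where the adjusted p is below 0.05. Kcnn1 stays between -1.56 and -1.26 and Kcnd2 between 0.91 and 1.31, and which settings give a call differs by gene. The 4 genes were chosen after their values were seen.

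Among 27 genes known to act with these channels, 25 were tested and none passed by edgeR, against 0.359% of all tested genes. An unadjusted p below 0.05 was reached by 5 of the 25, against 12.5% of all tested genes, and 2 of the 25 passed with DESeq2, against 2.55%. A positive fold change was found for 15 of the 25, against 48.4% of all tested genes, and the median was 0.19 against -0.01. They include the calmodulins that gate SK channels, G protein beta and gamma subunits that open GIRK channels, and the Kv2 partner Amigo1. Calm2 and Calm3 had log2 differences of 0.32 and 0.35, and Amigo1 had one of -0.04 (SE 0.147). Gng4, a G protein gamma subunit, had 1.31 (edgeR adjusted p = 0.376, SE 0.554) and was high in mutant 2, at 11.8 CPM, against 1.05 to 4.96 CPM in the other mutant and 1.72 to 2.68 CPM in wild type libraries.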

How the data were processed

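RNA of sorted Math1-lineage cells was sequenced by the submitters, per the labels' protocols, from TotalScript libraries (2 ng input RNA, poly-A and random priming, 14 PCR cycles) pooled on 3 lanes. The deposited table holds raw read counts per Ensembl gene, and a gene length under the heading width. The submitters' processing notes name mm10 and bcl2fastq 1.8.4. Aligner, counter, annotation release and strand setting are not given in the sources used here. Per the labels, every sample had its own mother, so replicates are biological.

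Of 39017 genes 37607 were matched to a symbol. Columns show the group and a running number but no title number, so they were assigned to groups only. In R 4.3.3, edgeR 4.0.16 was run on all counts (filterByExpr, TMM, robust quasi-likelihood F test, Benjamini-Hochberg over all genes tested, threshold 0.05), with no covariate. SE is the absolute log2 fold change over the square root of F, and 95% intervals use it with the fit's degrees of freedom. Alternatives used DESeq2 1.42.0 and limma 3.58.1. The fit was also run on simulated counts with the same spread between libraries for every gene and no deviating library. That run does not show how the fit performs on these libraries. No pair of libraries agreed within sampling noise (lowest chi-square per gene 18.5). Positions and exon overlaps are from GENCODE on the same build.

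The members and lists were chosen with earlier results of these data known. Named members were those past the threshold, those with groups that do not overlap at an average log2 CPM of at least 1, the 2 with the highest mean RPKM in each family, and in families without either of the first kinds the one with the smallest p (28 members in all). Of these 26 are reported, and some results are not reported here, while counts over all members include them. Others are named for their role or level, chosen after their values were seen.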

Additional observations from a re-analysis of the deposited data

Results flagged for a closer look

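Among 56 groups of 4 libraries examined (26 named members and 2 targeted genes in each group), 3 held a library far from the other 3, where chance flags about 1 in 20 groups. Kcnk9 stood at 38.6 CPM in mutant 4, against 21.8 to 23.5 CPM in the other mutant libraries. Kcnn2 stood at 16.7 CPM in wild type 7, against 11.5 to 12.3 CPM in the other wild type libraries. Hoxb2 stood at 46.6 CPM in wild type 6, against 37.4 to 38.9 CPM in the other wild type libraries.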

How the results depend on the processing

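Among all genes, 70 passed with all 8 libraries, against 214 with no low-count filter, 497 with DESeq2 and 233 with limma-voom and quality weights. With the 3 libraries highest on the first principal component (mutant 1 and wild type 5 and 6) left out, 171 passed. That setting was added once the data had been seen. Leaving out single libraries gave 26 to 544, with 544 for mutant 1, 33 for mutant 2, 36 for mutant 3, 26 for mutant 4, 36 for wild type 5 and 32 for wild type 8. Among members, 1 passed with all libraries, 2 with no low-count filter, with quality weights and with the 3 libraries left out, and 4 with DESeq2, while leaving out single libraries gave 0 to 3. Among partner genes, 0 passed by edgeR with all libraries, with 5 at an unadjusted p below 0.05, against 2 with DESeq2, 0 with limma-voom, 1 with the 3 libraries left out, and 0 to 3 when single libraries were left out (3 for mutant 1). The cause of these moves was not tested.

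Of 502 values of the 26 named members and both targeted genes under 18 alternatives, 469 kept their direction and side of the threshold, 6 were calls of Kcnn1 lost without a single library and 8 were calls gained by Kcnd2, Kcnma1 or Kcnt1. The sign turned in 19, all of genes without a call. When single libraries were left out, Kcnk2 ran from -0.18 to 0.039, Kcnh7 from -0.11 to 0.21, Kcne2 from -0.60 to 0.49 and Kcng3 from -0.037 to 0.15 on the log2 scale. Kcnh7 was also at -0.0081 with upper quartile scaling, -0.050 with library size only, -0.0052 with at least 1 CPM in 4 libraries and -0.15 with the 3 libraries left out. Kcne2 was at -0.35 with limma-voom and -1.05 with quality weights and Kcng3 at -0.0094 with library size only, where all genes had a median of -0.07. No paired analysis was possible because the columns carry no replicate number of the sample titles. Members with few counts had wide 95% intervals, such as -0.83 to 2.65 for Kcnv1.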

Other observations

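Several members lie beside another member in the genome. Opposite signs were found for Kcnj9 and Kcnj10, for Kcnj6 and Kcnj15, and for Kcnip1 and Kcnmb1. All other neighbours within 1 Mb that were both tested shared a sign. These include Kcnmb4 with its antisense genes and Kcnd3 with Kcnd3os, which share exons and are not separate observations. Among the rest, Kcne2 and Kcne1 had log2 fold changes of 0.15 and 0.89, and Kcnj14 and Kcnj11 had -0.82 and -0.50. Kcnj9 and Kcnj10 are 11891 bases apart on chromosome 1 and had log2 fold changes of 0.25 and -0.46, with 0.341 and 2.15 RPKM in wild type libraries. Kcnj6 and Kcnj15 on chromosome 16 had 0.40 and -0.41, with 8.10 and 0.0599 RPKM in wild type libraries. Kcnj16 and Kcnj2, 38195 bases apart on chromosome 11, had -0.19 and -0.37, and Kcnmb1, which lies inside Kcnip1, had -0.07 where Kcnip1 had 0.96. None of the genes named here passed by edgeR, and the differences between neighbours were not tested.

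The ratio of Kcnj6 to Kcnj3 per length was 0.308 to 0.532 in mutants and 0.338 to 0.543 in wild type libraries. It overlapped between the groups. The microglial gene C1qa was at 0.203 ± 0.104 CPM in mutant and 2.35 ± 1.19 CPM in wild type libraries (SD, n = 4 each; log2 fold change -3.45, edgeR adjusted p = 0.0115), and the summed level of 8 microglial markers was 20.6 to 32.5 CPM in mutant and 26.6 to 35.8 CPM in wild type libraries.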
